A study of Mus musculus with 26 samples.

Results

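The 10 genes described here are subunits of cytokine receptors (Il7r, Il2rb, Il2rg, Il4ra, Il21r, Il6ra and Il6st) and inhibitors that cytokine signals induce (Socs1, Socs3 and Cish). They were chosen by gene symbol, and each symbol matched 1 of the 46517 rows of the table of normalized counts. All 10 passed the filter on low values, a normalized count of at least 10 in at least 2 libraries, as did 16372 genes in all. Their values in all 26 libraries are given by TCR transgenic line and by stage of positive selection.

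RNA was sequenced from sorted thymocytes of mice that carry 1 of 3 MHC-I restricted T cell receptors (TCRs), to compare positive selection across self-reactivity, which the study ranks as low in TG6, intermediate in F5 and high in OT-1. The OT-1 mice were OT-1tg Rag2KO and the F5 mice F5tg Rag1KO, both on strain C57/BL6. The TG6 mice were TG6tg H2b/d on C57/BL6 x B6.C-H2d/bByJ, and their labels name no Rag knockout, so the lines differ in TCR, MHC haplotype and Rag genes, and these cannot be told apart. Every group came from thymus without treatment. Cells sorted as CD4+CD8+CXCR4+CCR7- made up the early stage of positive selection. The late stage was gated on loss of CXCR4 and gain of CCR7 among CD4+CD8+ cells (CXCR4-CCR7+), and mature CD8 single positive (CD8SP) cells were CD4-CD8+ with the same CXCR4-CCR7+ gate. Each of the 9 groups had 3 libraries from mice numbered as biological replicates, except TG6 late with 2. The age of each mouse is not given in the labels.

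Cytokines of the common gamma chain family signal through receptors that share the subunit encoded by Il2rg. The private subunit sets the ligand: Il7r binds IL-7, Il2rb serves IL-2 and IL-15, Il4ra serves IL-4 and Il21r binds IL-21. IL-6 is bound by the product of Il6ra and signals through gp130, the product of Il6st, which other cytokines of the family also use. The receptors activate JAK kinases, which phosphorylate STAT factors. STATs then induce Socs1, Socs3 and Cish, whose products damp the same receptors. In the thymus, IL-7 receptor expression is known to be low in CD4+CD8+ thymocytes and to return during positive selection of CD8 T cells, where IL-7 and IL-15 support survival and the CD8 fate. Socs1 is known for its high expression in CD4+CD8+ thymocytes.

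Many STAT factors bind a short inverted repeat. The motif TTCNNNGAA, whose fixed letters read the same on both strands, was searched in 300-base windows from RefSeq (GRCm38.p6), from 250 bases before to 50 bases after each start. It was present in 8.3% of all 32851 windows, and 0.457% held at least 2 matches. Of the 9 members with a window, 3 held the motif, and their sites are shown because Cish is a known STAT target. These genes differ between stages below, as do members without a match, such as Il6ra and Il2rg. Capitals mark the bases matched.
Cish: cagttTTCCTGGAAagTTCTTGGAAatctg
Socs3: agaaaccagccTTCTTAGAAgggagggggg
Il7r: agttcaggagcTTCAGGGAAtaccaagatg
The Cish site lies at chr9:107296654-107296683 on the plus strand, in an untranslated part of an exon by GENCODE vM21, and holds 2 matches that start at positions 1 and 12 counted from the RefSeq start. The Socs3 site at chr11:117969502-117969531 and the Il7r site at chr15:9530000-9530029 are on the minus strand and within introns of GENCODE transcripts. Their matches start 154 and 142 bases before the RefSeq start. A match is a description of the letters, and binding was not measured.

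The labels were checked against marker genes. The summed level of the thymocyte markers Cd3e, Cd8a, Cd8b1 and Lck lay between 41595 and 92676 normalized counts. Cd4 fell to group means of 153 to 259 in mature CD8SP cells, and Ccr7 was 147 to 779 in the early and 4641 to 12058 in the later groups. The markers of other cells had summed levels of 108 to 319 for B cells, 42.6 to 560.1 for myeloid cells, 3.98 to 109 for NK and innate-like cells, 221 to 1346 for CD4 and regulatory T cells and 24.5 to 76.0 for thymic epithelium. In all 26 libraries the NK marker Ncr1 was listed at 0. The third TG6 mature CD8SP library stood apart from its group, with a correlation down to 0.950 against 0.977 between the other two, so values without it are given where they change a call. Library totals of normalized counts were 16134786 to 18944173. In bulk samples, fewer cells of a type and less RNA per cell cannot be told apart.

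From early to late positive selection, Il7r, Il2rb and Il6ra rose in every line, with the 3 largest log2 gains among the members in TG6, F5 and OT-1 alike. All 3 were lower in TG6 than in OT-1 at the early stage. The early OT-1 libraries also stood apart in markers, with Ccr7 at 648 to 863 normalized counts against 112 to 199 in TG6 and 139.8 to 269.9 in F5, a mean of Cd4 of 8026 against 22113 and 13538, and a mean of Zbtb7b, a CD4 lineage factor, of 169 against 11.6 and 6.22. The part of these differences between the sorted cells in the early values of the members was not tested. From the early to the late stage, 6 members rose and 2 fell in TG6, against 12.1% and 13.3% of all genes tested. In F5, 6 rose and 1 fell (background 12.7% and 14.0%), and in OT-1, 7 rose and 0 fell (12.7% and 14.0%). At an unadjusted p under 0.05, 1 member of OT-1 was lower by limma, Socs1. From late to mature CD8SP, 2 rose in TG6 (14.5% higher and 7.79% lower over all genes), 3 rose in F5 (12.2% and 8.31%) and 1 rose in OT-1 (14.0% and 10.4%). With the replicate block by mouse, 2 rose and 1 fell in TG6 in this step (15.0% and 9.47% of all genes in the blocked fit), 3 rose and 2 fell in F5 (16.1% and 13.2%) and 2 rose and 2 fell in OT-1 (18.8% and 16.2%). The falls were those of Socs1 in all 3 lines, Il4ra in F5 and Il6st in OT-1. In the main fit no member fell in this step by limma, where at an unadjusted p under 0.05 there were 0 lower in TG6, 2 in F5 and 2 in OT-1. The share of all genes at an unadjusted p under 0.05 was not taken, so the unadjusted counts have no background. With 10 members, 1 or 2 genes called by adjusted p are near the background shares given. The median log2 fold change of the members from early to late was 1.22 in TG6, 0.93 in F5 and 1.14 in OT-1, beside medians over all genes of 0.00, 0.04 and 0.02. In the next step it was 0.28, 0.04 and −0.17, beside 0.00, −0.01 and −0.02.

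Between OT-1 and TG6 at early positive selection, 4 members were higher in OT-1 and 2 lower, against 15.4% and 12.4% of all genes. At the late stage 2 were higher and 1 lower (9.34% and 6.21%), and in mature CD8SP cells 1 higher and 1 lower (4.67% and 5.08%). Those mature background shares were 15.0% and 12.2% without the third TG6 mature library. OT-1 against F5 gave 4, 6 and 2 members higher at the 3 stages and 0 lower, with backgrounds of 7.81%, 13.6% and 13.3% higher and 4.88%, 10.4% and 10.1% lower. F5 against TG6 gave 0 members higher and 1, 4 and 3 lower, with backgrounds of 3.12%, 1.75% and 2.14% higher and 3.35%, 3.23% and 4.50% lower. Genes count as called where the adjusted p (Benjamini-Hochberg over the 16372 genes) was under 0.05 in 1 limma fit on log2(value + 1). Fold changes below are on that scale, with SE after ±. The members' median log2 fold change at the 3 stages was 0.08, 0.51 and 0.11 for OT-1 against TG6, 0.60, 0.77 and 0.43 for OT-1 against F5 and −0.35, −0.87 and −0.31 for F5 against TG6, with the median over all genes between −0.01 and 0.02. At an unadjusted p under 0.05 there were 0 members lower in OT-1 than in F5 at each stage, and 0, 1 and 1 higher in F5 than in TG6. The share of all genes at that threshold was not taken. Comparisons of lines at a stage share groups, so their values are given side by side.

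**Figure D1:**
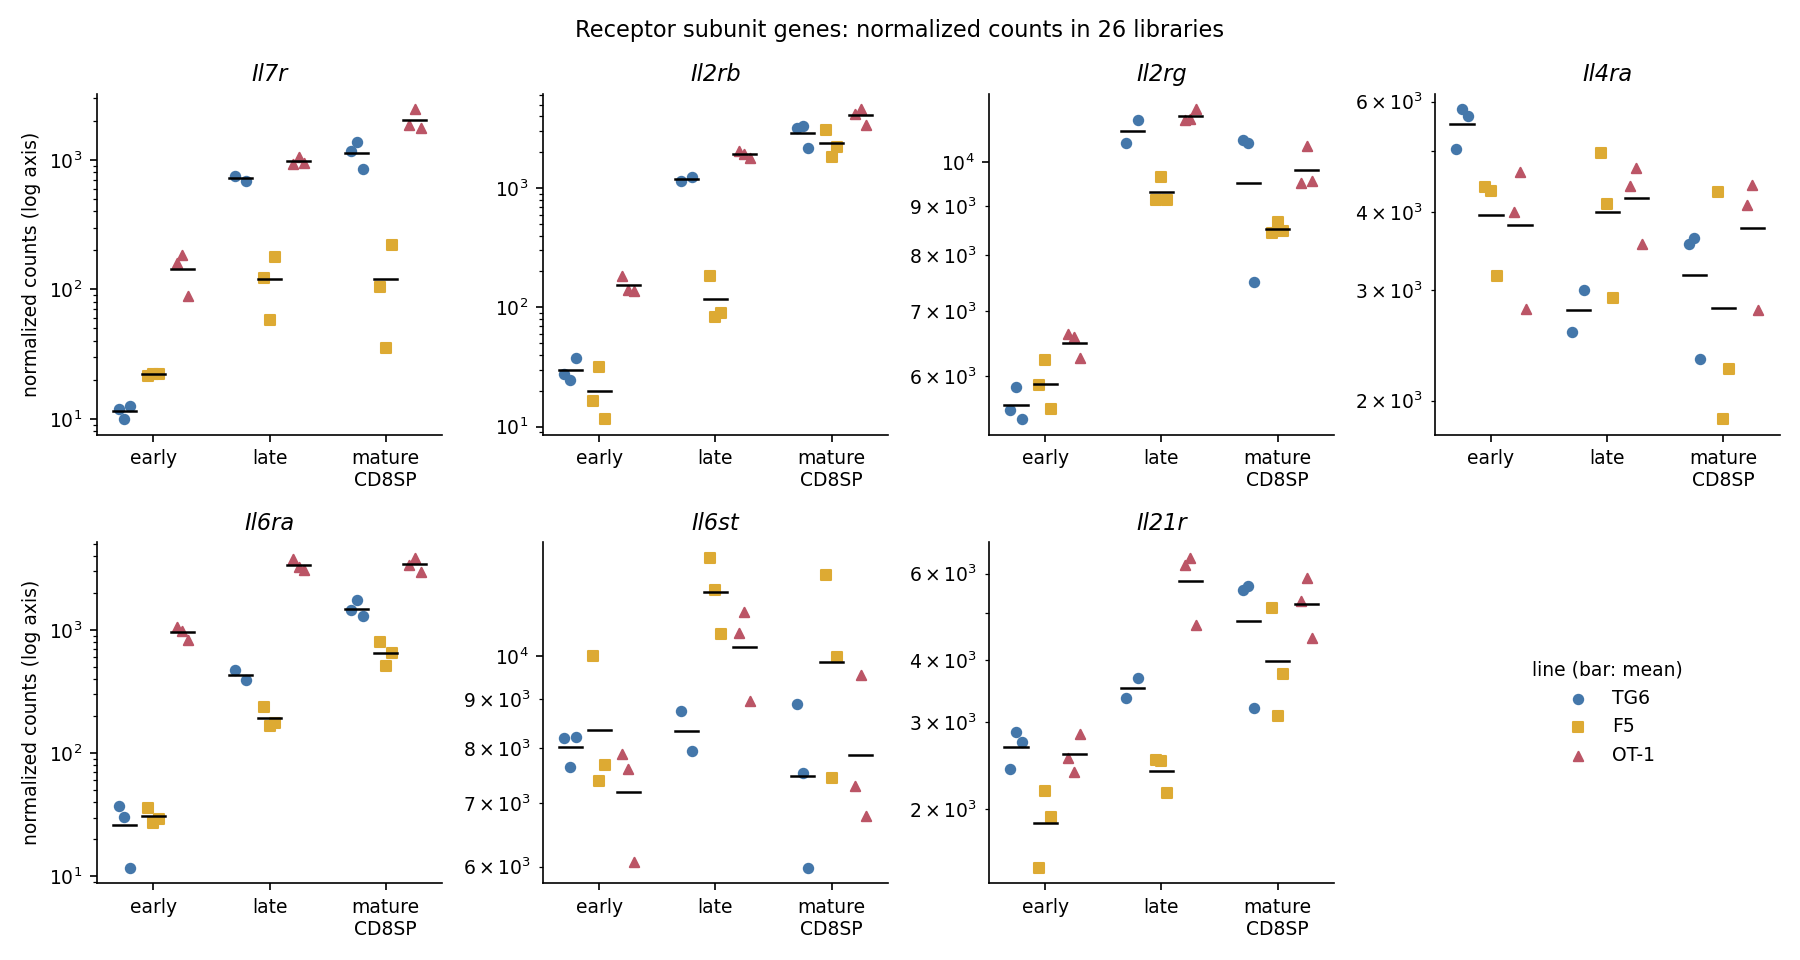
Normalized counts of the 7 receptor subunit genes (log axis) at the 3 stages, with 1 point per library, colour and shape for the line and a bar for the group mean. Il7r stays at 35.0 to 222 in mature F5 libraries, against at least 852 in the other mature libraries, and Il6ra in OT-1 is already at 828 to 1063 at the early stage.

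Il7r (ENSMUSG00000003882.5, chromosome 15, 9505788 to 9530176, minus strand, GRCm38) encodes the alpha chain of the IL-7 receptor. At early positive selection its 3 libraries had 11.9, 9.94 and 12.6 normalized counts in TG6, 21.4, 22.2 and 22.3 in F5, and 161, 183 and 88.7 in OT-1. No groups overlapped at this stage. OT-1 was higher than TG6 by 3.48 ± 0.44 (SE, adjusted p = 3.94e-06) and higher than F5 by 2.59 ± 0.44 (adjusted p = 0.000286), whereas F5 against TG6 gave 0.89 ± 0.44 (adjusted p = 0.274).

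At the late stage the TG6 libraries had 757 and 690.1 normalized counts of Il7r and the OT-1 libraries 932, 1057 and 948. TG6 had thus risen by 5.87 ± 0.49 (adjusted p = 1.22e-08), from a mean of 11.5 to 723, and OT-1 by 2.82 ± 0.44 (adjusted p = 6.72e-05). The TG6 to OT-1 difference of 0.44 at this stage did not pass the test (95% interval −0.59 to 1.46, adjusted p = 0.605), although these libraries did not overlap, and it was called in a fit of those groups alone (0.0336). F5 rose less far, to 123, 58.2 and 177, a change of 2.25 ± 0.44 (adjusted p = 0.000526). All late F5 libraries lay below all late TG6 and OT-1 libraries, with log2 fold changes of −2.73 against TG6 (adjusted p = 0.000969) and 3.16 for OT-1 against F5 (adjusted p = 1.49e-05). Late F5 cells also had the highest mean of Cd4 among the late groups (7935 normalized counts, against 4087 in TG6 and 2507 in OT-1) and the lowest of Ccr7 (4641, against 8052 and 9570.5). The part of the sorted populations in this difference, and in those of late F5 in other genes below, was not tested.

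In mature CD8SP cells Il7r had 1162, 1383 and 852 normalized counts in TG6, 105, 35.0 and 222 in F5 and 1868, 2471 and 1774 in OT-1. The F5 step from late to mature gave −0.21 ± 0.44 (interval −1.12 to 0.71, adjusted p = 0.809), and the late and mature F5 libraries overlapped. Mature F5 was lower than TG6 (−3.55 ± 0.44, adjusted p = 6.15e-06), and OT-1 was higher than F5 by 4.41 ± 0.44 (adjusted p = 3.28e-07). The F5 library with replicate number 2 was the lowest and number 3 the highest at both of these stages. Mature F5 also had the lowest mean of Ccr7 among the mature groups (6865 normalized counts, against 12058 in TG6 and 10184 in OT-1). The part of this in the Il7r values was not tested. In Il7r, mature OT-1 lay above mature TG6 without overlap, by 0.86 (interval −0.05 to 1.77, adjusted p = 0.224). The OT-1 step from late to mature gave 1.04 ± 0.44 (adjusted p = 0.0896), which passed with the replicate block by mouse (1.04, adjusted p = 0.0229, over 9 alternatives 0.00348 to 0.141). In a fit of those groups alone, the late F5 to TG6 difference was not called (adjusted p = 0.0795, over 9 alternatives 0.000675 to 0.0795). In order of the means, Il7r ran from OT-1 mature through TG6 mature, OT-1 late, TG6 late, OT-1 early, F5 mature, F5 late and F5 early to TG6 early. Among these neighbours, only the ranges of TG6 mature with OT-1 late, OT-1 early with F5 mature, and F5 mature with F5 late overlapped.

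Il2rb (chromosome 15, 78479256 to 78495271) encodes the beta chain of the IL-2 and IL-15 receptors. At early positive selection it had 27.5, 24.7 and 37.7 normalized counts in TG6, 16.4, 31.7 and 11.6 in F5 and 182, 140.5 and 136 in OT-1. The OT-1 libraries lay above all others, by 2.32 ± 0.30 over TG6 (adjusted p = 5.13e-06) and by 2.99 ± 0.30 over F5 (adjusted p = 4.17e-07), while TG6 and F5 overlapped. F5 against TG6 gave −0.66 (adjusted p = 0.227), and −1.04 (adjusted p = 0.0413) without F5 replicate 2. At the late stage the values were 1149.8 and 1248 in TG6, 182, 83.6 and 90.0 in F5, and 2054, 1925 and 1777 in OT-1. Late F5 was again far below both other lines, by −3.42 against TG6 (adjusted p = 2.88e-07) and with OT-1 higher by 4.10 (adjusted p = 1.98e-09). OT-1 lay above TG6 without overlap, by 0.68 (adjusted p = 0.186), a difference called in a fit of those groups alone (0.00946). Late F5 cells differed from both lines in Cd4 and Ccr7, as given for Il7r, and the part of this in Il2rb was not tested.

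Unlike Il7r, Il2rb rose in F5 from late to mature CD8SP, to 3089, 1820.5 and 2199.6 normalized counts (4.37 ± 0.30, adjusted p = 5.04e-09). It also rose in TG6, to 3215, 3303 and 2151 (1.24 ± 0.34, adjusted p = 0.01), and in OT-1, to 4179, 4598 and 3401 (1.07 ± 0.30, adjusted p = 0.0122). The mature F5 and TG6 libraries overlapped and gave −0.29 (interval −0.92 to 0.33, adjusted p = 0.7). OT-1 lay above both, with 0.51 over TG6 (adjusted p = 0.298) and 0.80 over F5 (adjusted p = 0.0577), neither called. The difference from F5 passed without F5 replicate 1 (1.01, adjusted p = 0.0382). It also passed with a pseudocount of 5 (adjusted p = 0.041) and among genes with a mean of at least 50 (adjusted p = 0.0486). The TG6 step was not called without either of the late libraries (adjusted p = 0.0816 without replicate 1 and 0.0574 without replicate 2), nor the OT-1 step without mature replicate 2 (adjusted p = 0.0501). NK and innate-like cells express Il2rb, and their marker sum in mature cells was 42.9 to 67.8 in TG6, 13.8 to 18.5 in F5 and 73.7 to 109 in OT-1, with Ncr1 at 0. Within that sum the mean of Eomes was 36.7 in TG6, 4.72 in F5 and 76.8 in OT-1. The part of NK or innate-like cells in the Il2rb values was not tested.

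Il2rg (chromosome X, 101264378 to 101268255), the shared gamma chain, was high in every library and rose from early to late in every line. At the early stage it had 5535, 5847 and 5414 normalized counts in TG6, 5870.0, 6236 and 5552 in F5 and 6631, 6592 and 6268 in OT-1. The rise was 0.94 ± 0.10 in TG6 (to 10469 and 11042, adjusted p = 5.03e-07), 0.66 ± 0.09 in F5 (to 9129.5, 9651 and 9136, adjusted p = 1.33e-05) and 0.78 ± 0.09 in OT-1 (to 11042, 11089.9 and 11347, adjusted p = 3.53e-06). No early library overlapped a late library of its line. In mature cells it had 10546, 10456 and 7503 in TG6, 8450.1, 8658 and 8477 in F5 and 9505, 10400.1 and 9551 in OT-1, and no step from late to mature was called in the main fit. Under quantile normalization the fall in this step was called in TG6 (−0.31, adjusted p = 0.0359) and in OT-1 (−0.26, adjusted p = 0.046).

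Differences of Il2rg between lines were small. At the early stage OT-1 exceeded TG6 by 0.21, not called in the main fit and called in a fit of those groups alone (adjusted p = 0.0297). OT-1 was above F5 at the late stage by 0.26 ± 0.09 (adjusted p = 0.0428), a call lost when any 1 of the 6 libraries was left out (adjusted p 0.0609 to 0.117) and under total scaling (0.202), quantile normalization (0.125), no filter (0.078) and no trend (0.0701). F5 against TG6 in mature cells gave −0.14 (adjusted p = 0.488), and −0.30 (adjusted p = 0.00295) without the third TG6 library, whose value of 7503 lay below all other mature libraries.

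Il4ra (chromosome 7, 125552120 to 125579474), the chain that binds IL-4, fell in TG6 between the first 2 stages. There it went from 5035, 5837 and 5699 normalized counts at early positive selection to 2573 and 3006 at the late stage (−0.99 ± 0.30, adjusted p = 0.017), and the groups did not overlap. Without late replicate 1 or 2 the fall was −0.87 (adjusted p = 0.138) or −1.10 (adjusted p = 0.0568), and it was called under all 9 other alternatives. In OT-1 it had 3996, 4628 and 2796 at the early stage and 4392, 4697 and 3555 at the late stage, which overlapped (0.17, interval −0.38 to 0.72).

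F5 had 4389, 4316 and 3163 normalized counts of Il4ra at the early, 4966, 4114 and 2918 at the late and 4306, 1868 and 2243 at the mature stage. The late to mature step of −0.57 (adjusted p = 0.139) passed with the replicate block (adjusted p = 0.0177, over 9 alternatives 0.0177 to 0.371) and without mature replicate 1 (−0.93, adjusted p = 0.0101). Mature TG6 had 3554, 3632 and 2331 and mature OT-1 4099, 4409 and 2787. With all libraries and without a block, no difference of Il4ra between lines passed the test. OT-1 over F5 in mature cells passed without F5 replicate 1 (0.85, adjusted p = 0.0221, against 0.49 and 0.188 with it). The OT-1 to TG6 differences were −0.57 early (adjusted p = 0.119, over 9 alternatives 0.0414 to 0.182) and 0.59 late (adjusted p = 0.195, over 9 alternatives 0.0315 to 0.297), the late one passing in a fit of those groups alone (0.0482). Only TG6 early, the highest group, stood clear of its neighbour in the order of the 9 group means.

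Il21r (chromosome 7, 125603429 to 125633570), the receptor of IL-21, rose from early to late in OT-1, from 2533, 2383 and 2846 normalized counts to 6237, 6465 and 4712 (1.16 ± 0.20, adjusted p = 0.000165). In F5 the rise came at the next step, from 2515, 2498 and 2152 at the late to 5114, 3085 and 3762 at the mature stage (0.71 ± 0.20, adjusted p = 0.0124). That F5 step was not called without late replicate 3 (adjusted p = 0.0599), without mature replicate 1 (0.0809) or with only its groups in the fit (0.079). TG6 had 2412, 2871 and 2734, then 3360.3 and 3682, then 5567, 5669.5 and 3212, with steps of 0.40 (adjusted p = 0.209) and 0.41 (adjusted p = 0.201), and 0.68 (adjusted p = 0.0207) for the second step without the third mature library. The first TG6 step, whose libraries did not overlap, was called in a fit of its groups alone (adjusted p = 0.0267).

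At the late stage OT-1 was above F5 in Il21r by 1.27 ± 0.20 (adjusted p = 5.52e-05), and no libraries overlapped. Its difference from TG6 was 0.71 ± 0.22 (adjusted p = 0.0325), a call lost without either TG6 library or without OT-1 replicate 1 or 2 (adjusted p up to 0.194), under total scaling (0.0828), with no filter (0.0529) and with no trend (0.0522). In mature cells no difference in Il21r between lines was called with all libraries (OT-1 against F5 0.41, adjusted p = 0.143, and 0.60, adjusted p = 0.0462, without F5 replicate 1), with 5281, 5885 and 4437 in OT-1. The early F5 libraries, at 1523, 2174 and 1927, formed the lowest group.

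Il6ra (chromosome 3, 89864059 to 89913196), which encodes the IL-6 binding chain, had the largest difference between lines among the members. At early positive selection it had 37.1, 30.1 and 11.8 normalized counts in TG6, 35.9, 27.3 and 29.5 in F5 and 1063, 982 and 828 in OT-1. OT-1 was higher by 5.27 ± 0.27 than TG6 (adjusted p = 4.39e-12) and by 4.91 ± 0.27 than F5 (adjusted p = 2.86e-11), and the OT-1 mean was 36.4 times that of TG6. TG6 and F5 overlapped (0.36, interval −0.20 to 0.92).

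The gap in Il6ra narrowed at later stages but stayed. Late libraries had 476 and 393 in TG6, 238, 167 and 176 in F5 and 3774, 3243 and 3051 in OT-1, and OT-1 exceeded TG6 by 2.95 ± 0.30 (adjusted p = 5.57e-07). Mature libraries had 1448, 1737 and 1299.6 in TG6, 802, 508 and 649 in F5 and 3399, 3879.6 and 2974 in OT-1, and OT-1 exceeded TG6 by 1.19 ± 0.27 (adjusted p = 0.00686). The 3 lines did not overlap at either of these stages, in the order OT-1, TG6, F5.

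Il6ra rose in every line from early to late, by 4.13 ± 0.30 in TG6 (adjusted p = 1.89e-09), 2.60 ± 0.27 in F5 (adjusted p = 5.03e-07) and 1.81 ± 0.27 in OT-1 (adjusted p = 4.38e-05). The step to mature cells was 1.78 in TG6 (adjusted p = 0.000205) and 1.74 in F5 (adjusted p = 7.63e-05), while OT-1 gave 0.02 (interval −0.54 to 0.59). F5 was below TG6 by −1.17 at the late stage (adjusted p = 0.0237) and −1.21 in mature cells (adjusted p = 0.00602). The late difference was lost without either TG6 library or without F5 replicate 2 or 3 (adjusted p up to 0.246) and with only the groups compared (0.0845). Myeloid cells express Il6ra. The sum of their 6 markers was 69.0 to 124 in TG6, 44.8 to 180.0 in F5 and 166 to 409 in OT-1 at the early stage, 147 to 223, 42.6 to 68.2 and 173 to 190.2 at the late stage, and 257 to 560.1, 118 to 259 and 273 to 380.3 in mature cells. OT-1 had the higher mean of Lyz2, Csf1r, Adgre1 and Cd68 against TG6 at every stage (Lyz2 57.6 against 14.9 early, 25.6 against 3.92 late and 26.7 against 14.9 mature). Those of Itgax and H2-Aa were higher in OT-1 at the early stage and lower at the other stages (H2-Aa 112 against 16.2 early and 186 against 263 mature). The sorts took CD8+ cells, and the part of any myeloid cells among them in Il6ra was not tested.

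Il6st (chromosome 13, 112464070 to 112510086), which encodes gp130, was high throughout, at 5986 to 12699 normalized counts over the 26 libraries, and in the order of the 9 means every group overlapped its neighbour. It rose from early to late in F5, from 10012, 7385 and 7686 to 12699, 11749.8 and 10556 (0.49 ± 0.17, adjusted p = 0.0371), and in OT-1, from 7894, 7601 and 6070.0 to 10579.6, 11138 and 8975 (0.51 ± 0.17, adjusted p = 0.0296). The F5 call was lost without any of early replicates 2 and 3 or late replicates 1 and 2 (adjusted p up to 0.145) and with no filter, no trend or only those groups (0.0549 to 0.0638). The OT-1 call was lost without early replicate 3 or late replicate 1 or 2 (up to 0.147) and with no filter (0.0509). TG6 had 8193, 7634 and 8215 at the early and 8746 and 7949 at the late stage, which overlapped (0.06, interval −0.34 to 0.45). The OT-1 step from late to mature, to 7290.0, 9539.8 and 6788, was −0.39 (adjusted p = 0.104), and it passed with the replicate block (adjusted p = 0.0158, over 9 alternatives 0.0158 to 0.169) and without mature replicate 2 (0.0448). That step also passed under total scaling (0.0488) and quantile normalization (0.03975). Mature F5 had 12175, 7437 and 9968 and mature TG6 8892, 7523 and 5986, and F5 exceeded TG6 by 0.39 (adjusted p = 0.217), or by 0.58 (adjusted p = 0.0461) without F5 replicate 2. OT-1 against F5 gave −0.31 (adjusted p = 0.195), and −0.50 (adjusted p = 0.0377) without that library. This difference was also called under total scaling (−0.45, adjusted p = 0.0471) and quantile normalization (−0.49, adjusted p = 0.02755).

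**Figure D2:**
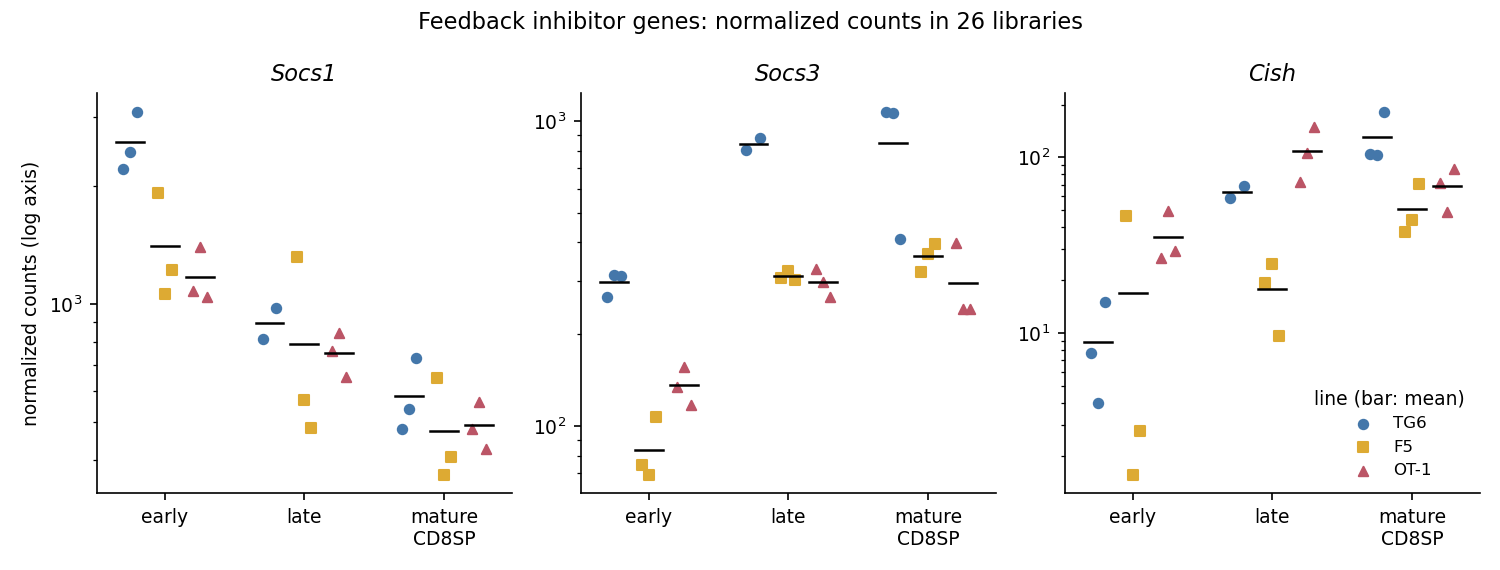
Normalized counts of the 3 feedback inhibitor genes (log axis) by stage and line, with 1 point per library and a bar for the group mean. Socs1 declines over the stages in all lines from the highest group, TG6 early, at 2214 to 3093, while Socs3 is higher at the late than at the early stage and highest in TG6.

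Socs1 (chromosome 16, 10782240 to 10785536) encodes an inhibitor of JAK kinases that acts on gamma chain and interferon receptors. It had 2214, 2439 and 3093 normalized counts in TG6 early, above all other libraries. In F5 early it had 1921, 1062 and 1223 and in OT-1 early 1080.2, 1402 and 1043. OT-1 was lower than TG6 by −1.13 ± 0.29 (adjusted p = 0.006). F5 against TG6 gave −0.91 ± 0.29 (adjusted p = 0.0658), which was called without F5 replicate 1 (−1.16, adjusted p = 0.0344) and under total scaling (0.0419) and quantile normalization (0.0418).

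Socs1 fell from early to late in TG6, to 814 and 978 (−1.52 ± 0.33, adjusted p = 0.0012), and in F5, to 1316, 568 and 482 (−0.93 ± 0.29, adjusted p = 0.0207). The F5 groups overlapped through replicate 1, and the call was lost without that early library (adjusted p = 0.123), without late replicate 2 (0.0908) or 3 (0.142) and with only the 2 groups in the fit (0.18). OT-1 went to 759.7, 843 and 653 (−0.64, adjusted p = 0.113). From late to mature the libraries went to 482, 541 and 727 in TG6, 647, 367 and 407 in F5 and 481, 563 and 428 in OT-1, with differences of −0.64 (adjusted p = 0.175), −0.63 (adjusted p = 0.137) and −0.62 (adjusted p = 0.131).

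Libraries of the same replicate number lay in parallel for this gene, and with the replicate block by mouse every one of these steps passed the test. The blocked difference was −0.64 from early to late in OT-1 (adjusted p = 0.000442, over 9 alternatives up to 0.175). In the next step it was −0.79 in TG6 (adjusted p = 0.000487, up to 0.256), −0.63 in F5 (0.000597, up to 0.415) and −0.62 in OT-1 (0.000718, up to 0.201). For every replicate number with both libraries, the later value was lower. That a number marks the same mouse at each stage is read from the sample descriptions. Over all genes tested, deviations of late and mature TG6 libraries of the same number correlated at only 0.0357 (replicate 1) and 0.0456 (replicate 2).

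**Figure D3:**
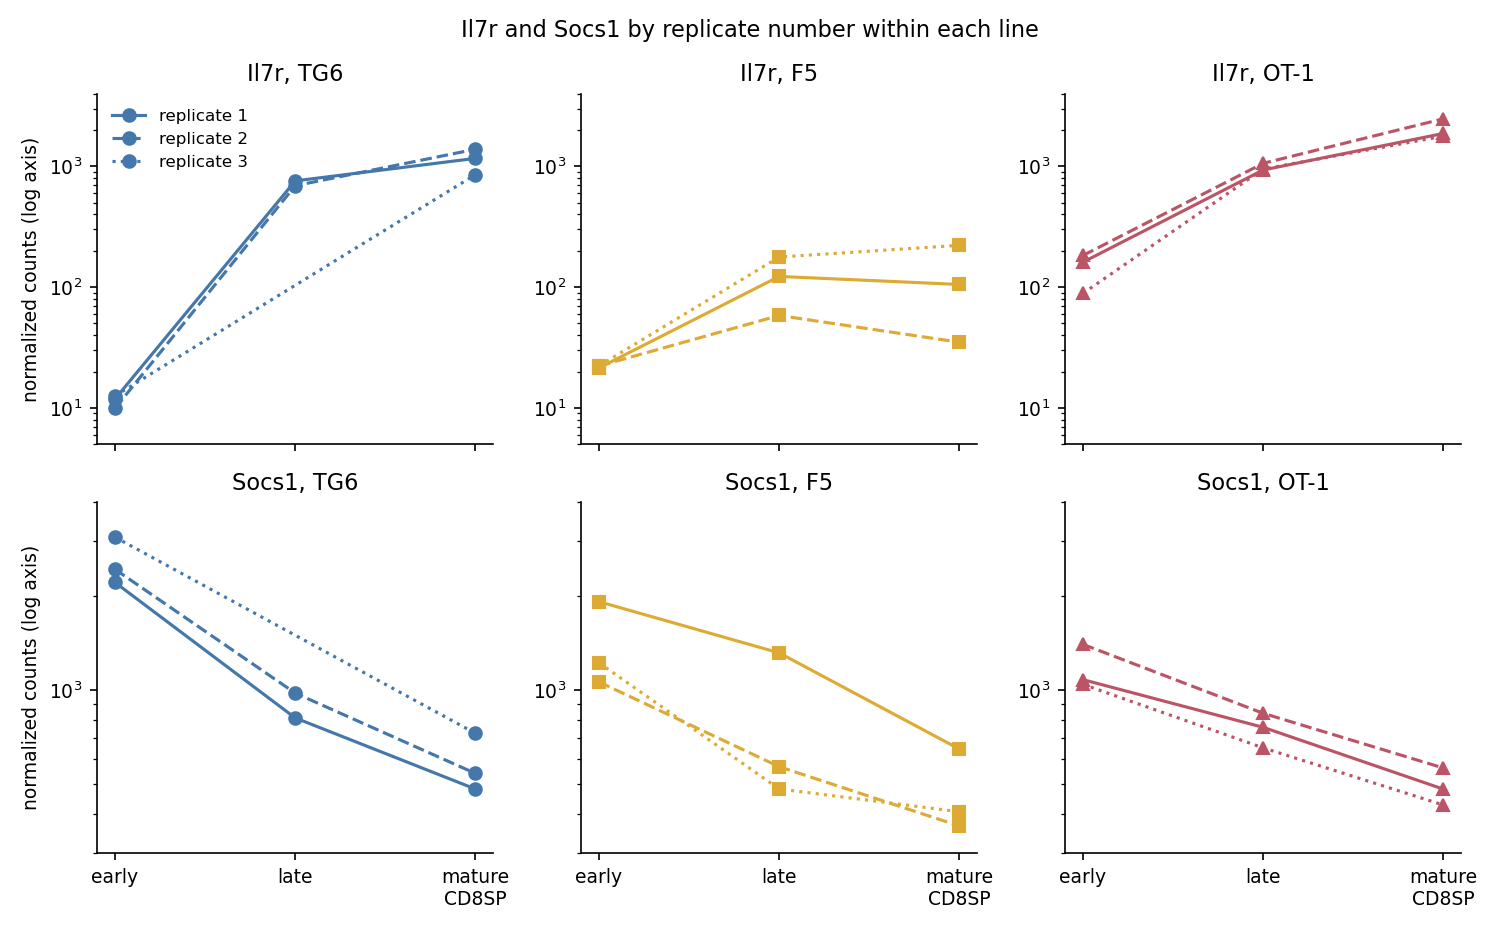
Normalized counts of Il7r (top) and Socs1 (bottom, log axes) by stage, with a panel per line and libraries of the same replicate number joined; TG6 has no late library of replicate 3. Socs1 falls along every joined line, and Il7r in F5 ends between 35.0 and 222.

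Socs3 (chromosome 11, 117966079 to 117970047), an inhibitor of gp130 signalling, moved opposite to Socs1 between the first 2 stages. It had 266, 314 and 309.5 normalized counts in TG6 early, 74.5, 69.1 and 107 in F5 early and 135, 156 and 117 in OT-1 early. It rose to 803 and 877 in TG6 (1.50 ± 0.30, adjusted p = 0.000554), to 306, 323 and 301 in F5 (1.91 ± 0.27, adjusted p = 1.35e-05) and to 327, 298 and 265 in OT-1 (1.12 ± 0.27, adjusted p = 0.00323). No line had overlap between the early and the late libraries.

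Both more self-reactive lines were below TG6 in Socs3 at every stage. OT-1 differed from TG6 by −1.12 (adjusted p = 0.00331), −1.50 (adjusted p = 0.00126) and −1.44 (adjusted p = 0.00113) at the early, late and mature stage. F5 differed by −1.84 (adjusted p = 9.04e-05), −1.43 (adjusted p = 0.00402) and −1.11 (adjusted p = 0.0108). Mature libraries had 1074, 1060.1 and 411 in TG6, 321, 367 and 395 in F5 and 398, 242 and 241 in OT-1, so that the third TG6 library lay close to the other lines without overlapping them. In fits of those groups alone, the mature differences were not called (adjusted p = 0.18 for OT-1, over 9 alternatives 0.000854 to 0.18, and 0.328 for F5, 0.00947 to 0.328). The F5 difference at the mature stage was also lost without TG6 replicate 1 (0.0821) or 2 (0.0756) or F5 replicate 1 (0.0522), and at the late stage without TG6 replicate 2 (0.0728). No difference of Socs3 between OT-1 and F5 passed the test (adjusted p = 0.0853, 0.894 and 0.39).

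Cish (chromosome 9, 107296026 to 107302784), a target of STAT5 whose product damps gamma chain signals, was the lowest of the members, at 1.56 to 182 normalized counts, and its replicates spread widely. TG6 had 7.73, 4.0 and 14.9 at the early stage, 58.5 and 69.0 at the late stage and 105, 103 and 182 in mature cells. The rise from early to late was 2.87 ± 0.79 (adjusted p = 0.0093) and was lost without late replicate 1 (adjusted p = 0.0502) or 2 (0.075). OT-1 had 26.6, 49.8 and 29.3, then 72.4, 106 and 149, then 71.9, 48.8 and 86.1, with neither step called in the main fit. The early and late OT-1 libraries did not overlap. That rise was called with a pseudocount of 5 (1.49, adjusted p = 0.0437) and in a fit of those groups alone (1.60, adjusted p = 0.0215).

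The early F5 libraries of Cish held 46.7, 1.56 and 2.76, so that 1 library decided the group. The call of OT-1 over F5 at that stage (2.18 ± 0.71, adjusted p = 0.0457) was lost in 5 of 6 fits without a library and under 7 of 9 alternatives, and became 3.49 (adjusted p = 4.09e-05) without F5 replicate 1. Without that library Cish also rose in F5 from early to late (2.51, adjusted p = 0.000563, against 0.233 with it). The early OT-1 to TG6 difference (1.98 ± 0.71, adjusted p = 0.0408) was lost in 5 of 6 such fits (adjusted p up to 0.167) and under 3 of 9 alternatives (up to 0.0672). At the late stage OT-1 exceeded F5, at 19.3, 24.6 and 9.64, by 2.58 ± 0.71 (adjusted p = 0.0103), and this was lost without F5 replicate 3 (0.0589). Mature F5 had 37.7, 43.9 and 70.1.

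**Figure D4:**
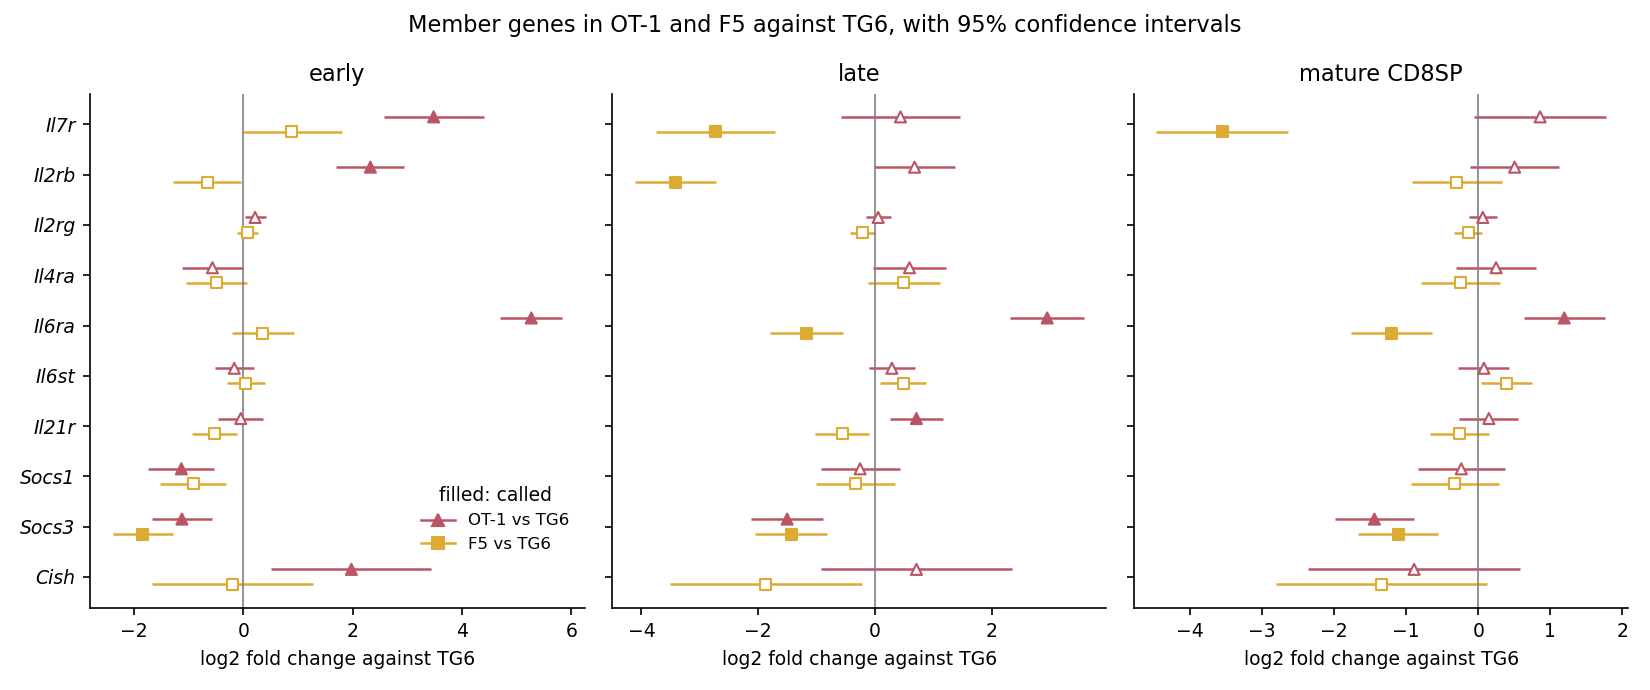
Log2 fold change of each member in OT-1 (triangles) and F5 (squares) against TG6 at each stage, on log2(value + 1), with 95% confidence intervals from the limma fit and filled symbols for called genes. Il7r, Il2rb and Il6ra are higher in OT-1 early, Il7r and Il6ra are lower in F5 late and mature, and Socs3 is lower in both lines at all 3 stages; both sets of differences share the TG6 libraries.

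For 3 members the OT-1 to TG6 difference on the log2 scale was itself different at the early and the mature stage. For the change from early to mature CD8SP in OT-1 minus that in TG6, Il6ra gave −4.07 ± 0.38 (adjusted p = 1.57e-06), Il7r −2.62 ± 0.62 (adjusted p = 0.0154) and Il2rb −1.82 ± 0.42 (adjusted p = 0.0135). These are 3 members lower and 0 higher by limma, against 2.91% and 1.28% of all genes. At an unadjusted p under 0.05, 2 were higher (Il4ra and Socs1), and no share of all genes was taken at that threshold. For Il7r the interaction was not called without OT-1 early replicate 2 (−2.42, adjusted p = 0.0508). Socs1 gave 0.90 (adjusted p = 0.316), which passed with the replicate block (adjusted p = 0.00212, over 9 alternatives up to 0.432), and Il2rg gave −0.15 (adjusted p = 0.705), and −0.31 (adjusted p = 0.0266) without the third TG6 mature library. Cish gave −2.87 (adjusted p = 0.129), which was called in a fit of those groups alone (adjusted p = 0.0272).

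Per kilobase of annotated exon, levels can be set beside each other within a group. Il2rg was the most abundant member in all 9 groups, at mean levels of 2345 to 4675 normalized counts per kb. In mature OT-1 cells it was followed by Il21r at 1565, Il2rb at 947, Il6st at 709, Il4ra at 627, Il7r at 437 and Il6ra at 395. In mature F5 cells Il7r stood at 25.9 per kb beside 553 for Il2rb, and in mature TG6 cells at 243 beside 674. At early positive selection in TG6, Il7r, Il2rb and Il6ra were at 2.46, 6.98 and 3.05 per kb, beside 888 for Socs1 and 920.3 for Il4ra. In the same group the other private chain, Il21r, was at 804 and the shared chain Il6st at 722. The exon length is that of all annotated exons of a gene and not of the isoforms used.

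Over the 26 libraries, Il7r, Il2rb and Il6ra had Pearson correlations with each other of 0.861 to 0.897 on the log2(value + 1) scale. Socs1 had negative values with them, from −0.757 with Il2rb to −0.655 with Il7r, and a positive one with Il4ra (0.646). These libraries share lines, stages and mice, and the values are a description. Among the 9906 genes with a mean of at least 100, the genes most like each member in pattern were Phf11b, Oas3 and Ctss for Il7r (0.962 to 0.951), Cd7, Fam101b and Nkg7 for Il2rb (0.981 to 0.977), D8Ertd82e, Samhd1 and Tmsb10 for Il6ra (0.979 to 0.965), and Vasp and Pacsin1 for Il2rg (0.971 and 0.959). They were Lax1, Abcc4 and Arhgef3 for Il21r (0.935 to 0.909), Zfp39, Arid2 and Gm15340 for Socs1 (0.941 to 0.912), Traf1, Slc52a2 and Cmah for Socs3 (0.919 to 0.870) and Ccdc102a, Enc1 and Ctss for Cish (0.898 to 0.865). The nearest genes to Il6st were Fam13b, Son and March7 (0.871 to 0.843), and those to Il4ra Cyfip2, Mir142hg and Ankrd50 (0.802 to 0.780), the lowest of the 10.

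The other genes of the pathway were taken from a list of 57, of which 49 passed the filter. From early to late, 15 rose and 10 fell in TG6 (background over all genes 12.1% and 13.3%), 12 and 8 in F5 (12.7% and 14.0%) and 15 and 7 in OT-1 (12.7% and 14.0%), with median log2 fold changes of 0.27, 0.13 and 0.20. The kinase Jak3, which binds the gamma chain, rose in every line, from means of 617 to 2322 in TG6 (1.91, adjusted p = 4.99e-09), 1043 to 2277 in F5 (1.12, adjusted p = 2.33e-06) and 1081 to 3437 in OT-1 (1.67, adjusted p = 3.85e-08). Its partner Jak1 also rose in every line, by 0.96, 0.91 and 0.59 (adjusted p = 1.41e-05, 9.21e-06 and 0.00101). Neither STAT5 gene was called higher. Stat5b fell in TG6 (−0.41, adjusted p = 0.00348) and OT-1 (−0.40, adjusted p = 0.00194) and gave 0.05 in F5 (adjusted p = 0.732), and Stat5a fell in TG6 (−0.46, adjusted p = 0.0136, lost without late replicate 1) and gave −0.08 in F5 and −0.20 in OT-1 (adjusted p = 0.693 and 0.226). With the replicate block the OT-1 fall of Stat5a was called.

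**Figure D5:**
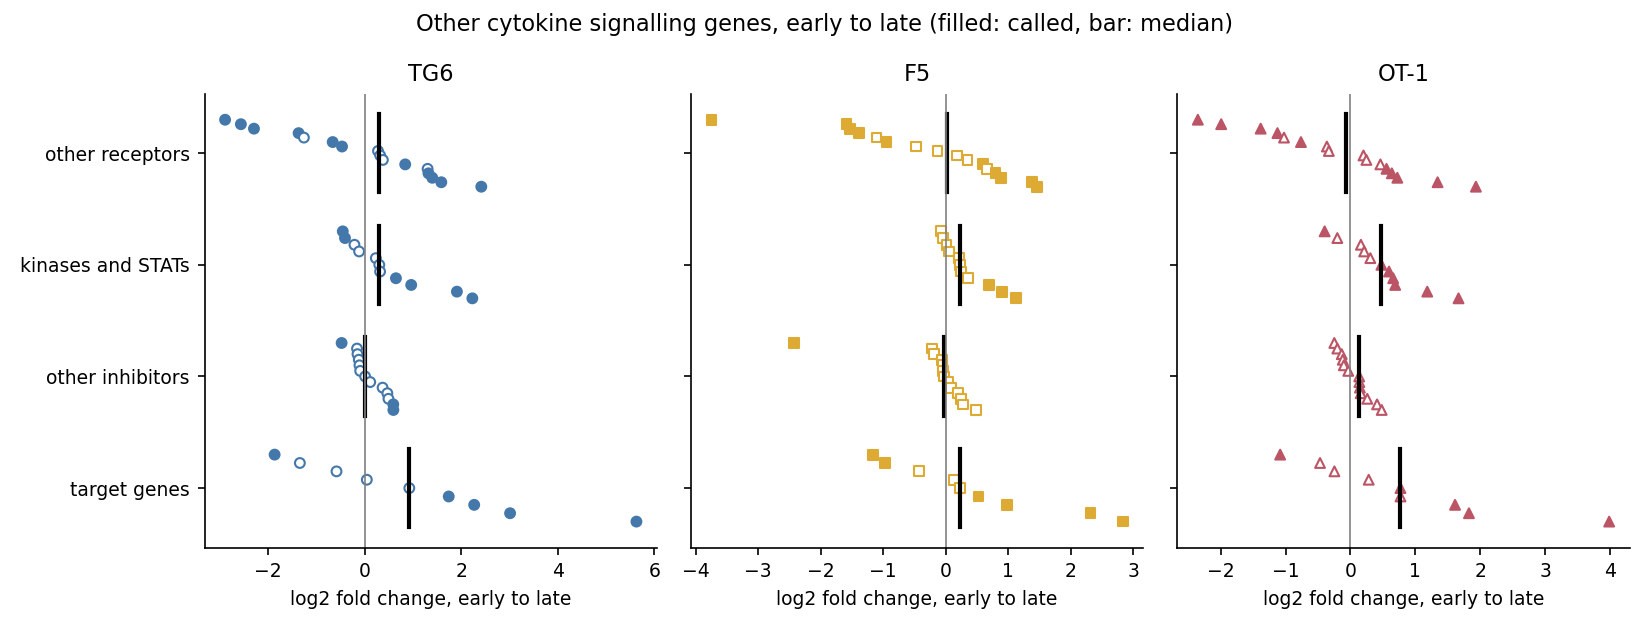
Log2 fold change from early to late of the 49 other pathway genes tested, in 4 lists and 3 lines, with filled symbols for called genes and a bar for the list median. The receptor list spreads to both sides in every line, while the inhibitor list stays near 0 apart from the low gene Socs2 in F5; the scale of the x axis differs between the panels.

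Among the 9 target genes, which cytokine receptors are known to induce in T cells, 4 rose in each line from early to late and 1 fell in TG6, 2 in F5 and 1 in OT-1 (background 12.1% and 13.3%, 12.7% and 14.0%, and 12.7% and 14.0%). Ccnd2, which encodes cyclin D2, rose by 5.63 in TG6 (42.0 to 2268, adjusted p = 8.87e-06), 2.84 in F5 (48.8 to 325, adjusted p = 0.00375) and 3.99 in OT-1 (940.4 to 6474, adjusted p = 0.0002), where the early libraries ranged from 145 to 2501.5 and the log2 ratio of the means was 2.78. Runx3, which sets the CD8 fate, rose by 3.01 in TG6 (636 to 4893, adjusted p = 9.91e-07) and 2.32 in F5 (786 to 3814, adjusted p = 7.86e-06), and in OT-1, outside the rule for naming, by 1.61 (1399 to 4254, adjusted p = 0.000517). Bcl2, a survival gene downstream of IL-7, rose by 2.27 in TG6 (625 to 2981, adjusted p = 2.04e-08), 0.77 in OT-1 (1427 to 2438, adjusted p = 0.00236) and 0.53 in F5 (855 to 1235, adjusted p = 0.0296), where the call was lost without replicate 1 or 3 of either stage and under total scaling.

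Values of Bcl2 between lines, chosen after they were seen, are given because F5 was below TG6 and OT-1 at the late and mature stages, as it was in Il7r. Since that likeness was the reason for the choice, it tests nothing. The p-values take no account of the choice, and a link of Bcl2 to Il7r was not tested. F5 was below TG6 by −1.28 at the late stage (1235 against 2981, adjusted p = 0.000159) and −1.25 in mature cells (1609 against 3821, adjusted p = 3.67e-05), and OT-1 was above F5 by 0.98 (adjusted p = 0.000261) and 0.62 (adjusted p = 0.0146). The mature TG6 difference was lost with only the groups compared, and the mature OT-1 difference also under total scaling and without F5 replicate 1. OT-1 lay above TG6 early (1.21, adjusted p = 2.47e-05) and below it in mature cells (−0.63, adjusted p = 0.0255), the latter lost without replicate 1 or 2 of either line.

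Of the 16 other receptor genes tested, 5 rose and 6 fell in TG6 from early to late, 5 and 5 in F5 and 5 and 5 in OT-1 (background 12.1% and 13.3%, 12.7% and 14.0%, and 12.7% and 14.0%). The falls included Ifngr1, the interferon gamma receptor, in TG6 (11006 to 1472, −2.90, adjusted p = 1.94e-06), Il9r in F5 (158 to 11, −3.75, adjusted p = 8.1e-05) and OT-1 (147 to 27.8, −2.35, adjusted p = 0.00626), and Il2ra, the IL-2 receptor alpha chain, in OT-1 (386 to 101, −1.99, adjusted p = 0.000251). Il9r also fell in TG6, outside the rule for naming (89.1 to 16.7, −2.30, adjusted p = 0.0156). Of the 13 other inhibitors 2, 0 and 0 rose and 1, 1 and 0 fell in TG6, F5 and OT-1, by limma and against the same background shares. Socs2 was at group means of 0.780 to 11.6, and all late F5 libraries lay under 3, so no fold is given. Of 6 ligand genes 0 passed the filter, and Il7, which thymic epithelium is known to make, was listed at 0 in every library.

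From late to mature CD8SP, 8 of the 49 rose and 5 fell in TG6 (background 14.5% and 7.79%), 9 and 3 in F5 (12.2% and 8.31%) and 2 and 6 in OT-1 (14.0% and 10.4%). Stat5b fell further in TG6 and OT-1 and fell in F5, by −0.54 in TG6 (adjusted p = 0.000443), −0.67 in F5 (adjusted p = 1.48e-05) and −0.54 in OT-1 (adjusted p = 0.000154). The TG6 call of Stat5b was lost in a fit of those groups alone. In F5, Ccnd2 rose by 3.21 (325 to 3206, adjusted p = 0.00182), Myc by 1.88 (236 to 910.4, adjusted p = 0.000484) and Pim2, a survival kinase, by 1.35 (440.2 to 1131, adjusted p = 3.75e-06). In TG6, Myc rose by 1.33 (adjusted p = 0.0176), and Il12rb1 and Il10ra fell by −1.35 (adjusted p = 6.88e-05) and −1.06 (adjusted p = 0.0033). Bcl2 gave 0.33 (adjusted p = 0.254), and 0.55 (adjusted p = 0.0438) without the third mature library. With the replicate block this rise of Bcl2 was called as well. Jak3 rose by 0.54 (adjusted p = 0.012), lost without late replicate 1 or mature replicate 2. The Myc call was lost without either late TG6 library and that of Il10ra without replicate 1. In OT-1, Il12rb1 and Ifnar1 fell by −0.98 (adjusted p = 0.000626) and −0.66 (adjusted p = 0.0017), and Il9r rose by 1.83 (adjusted p = 0.0326), a call lost in all 6 fits without a library. With the replicate block 11 pathway genes rose and 10 fell in F5 and 5 and 9 in OT-1, beside the larger shares of all genes called in that fit (16.1% and 13.2%, and 18.8% and 16.2%).

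Between OT-1 and TG6, 13 of the 49 pathway genes were higher in OT-1 and 11 lower at the early stage, 10 and 6 at the late and 2 and 4 at the mature stage (background 15.4% and 12.4%, 9.34% and 6.21%, and 4.67% and 5.08%), with medians of 0.16, 0.09 and 0.01 beside medians of 0.00, 0.00 and −0.01 over all genes. Total scaling moved the median of all genes to −0.11, −0.13 and −0.10. At the early stage Ccnd2 (940.4 against 42.0, 3.27, adjusted p = 0.00132) and Il12rb2 (698 against 249.5, 1.48, adjusted p = 0.000309) were higher and Il2ra (386 against 1011, −1.37, adjusted p = 0.00619) lower. The Ccnd2 call was lost in a fit of those groups alone (adjusted p = 0.0505). The early OT-1 libraries of Ccnd2 spread widely, as given above, and the log2 ratio of the means was 4.45. Jak3 and Jak1 were higher in OT-1 early by 0.81 (adjusted p = 0.000116) and 0.46 (adjusted p = 0.00821), and Stat5a and Stat5b lower by −0.61 (adjusted p = 0.000624) and −0.31 (adjusted p = 0.0117). The Stat5b call was lost without replicate 3 of either line and the Jak1 call with quantile normalization.

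At the late stage Pim1 (1.57, adjusted p = 0.0394), Stat4 (1.14, adjusted p = 1.63e-05), Socs5 (1.02, adjusted p = 0.00227) and Jak3 (0.57, adjusted p = 0.0131) were higher in OT-1. Stat2 (−0.86, adjusted p = 0.00028), a mediator of interferon signals, was lower in mature OT-1 cells, and was not called with only the groups compared. Stat5b gave −0.30 at both stages (adjusted p = 0.0438 and 0.0337), and Pim1 and both Stat5b calls were lost with 4 of the libraries left out in turn. The late Jak3 call was lost without replicate 1 of either line. In mature cells Jak3 gave −0.11 (adjusted p = 0.64), and −0.32 (adjusted p = 0.0401) without the third TG6 library. Without the third TG6 mature library 6 pathway genes were higher and 10 lower at the mature stage, and of all genes 15.0% and 12.2% were.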

How the data were processed

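The authors deposited 1 table of normalized counts per gene symbol, signal values made from reads trimmed and aligned with Trimmomatic 0.32, Bowtie2 2.3.2 and RSEM 1.2.31 on mm10, and scaled with DESeq2 (version not given), per the submitters' processing notes. All 26 columns were mapped to samples and 0 were left over. The late TG6 columns, named TG6B, were matched by replicate number to samples titled TG62B. The values are not reads: only 42.4 to 44.2% of them came out as whole numbers (within 0.01) when divided by the library's most frequent value, so no count test was run. Sums per library were 16134786 to 18944173, and 18280 of 46517 symbols were 0 in every library.

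Values were analysed as log2(value + 1), which understates the change of low genes. Genes with at least 10 in at least 2 libraries (16372) were fitted with limma 3.58.1 (trend) in R 4.3.3, with 1 mean per group and 17 residual degrees of freedom, all 26 libraries sharing 1 estimate of the spread. Tests were two-sided and adjusted by Benjamini-Hochberg within each comparison. Lines were compared at each stage, stages within each line, and the early to mature change between OT-1 and TG6. The code was tested on simulated data. p-values rest on the spread between libraries of a group. The main fit treats libraries of the same replicate number, taken as 1 mouse, as independent.

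All members were named in every comparison. Of the pathway genes, the 3 largest called changes per comparison (mean of at least 100 in the higher group) and Jak1, Jak3, Stat5a, Stat5b, Bcl2 and Socs2 were named. The members, the lists and these rules were chosen with earlier results of these data known. Genes alike in pattern were ranked by Pearson correlation. Some genes that these rules named are not reported here. Positions and exon lengths come from GENCODE vM21 (GRCm38), windows and sites from RefSeq (GRCm38.p6). Figures were drawn with matplotlib 3.10.9 in Python 3.11.15.

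The series text names 3 mice a line, and the sample descriptions number the biological replicates, so a number was taken as 1 mouse sorted into the stages, and was used as a block within a line as an alternative. No label states this for each library. Deviations of same-numbered libraries from their group means correlated at 0.106 to 0.340 in F5 (9 pairs), 0.0189 to 0.178 in OT-1 (9 pairs) and 0.0230 to 0.274 in TG6 (7 pairs). The other alternatives were another pseudocount (0.1 or 5), testing every gene or those with a mean of 50 or more, quantile normalization, total scaling, fits of the compared groups alone, no trend, and leaving out each library in turn.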

Additional observations from a re-analysis of the deposited data

Results flagged for a closer look

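A test of the difference between lines singled out 3 members, whose log2 change from early positive selection to mature CD8SP cells was smaller in OT-1 than in TG6. In normalized counts the means of all 3 rose further in OT-1. The TG6 early libraries were low, at 9.94 to 12.6 normalized counts of Il7r, 24.7 to 37.7 of Il2rb and 11.8 to 37.1 of Il6ra. The interaction log2 value of Il6ra was −4.07 (limma, adjusted p = 1.57e-06), with a rise from a mean of 957 to 3418 normalized counts in OT-1 and from 26.3 to 1495 in TG6. That of Il7r was −2.62 (adjusted p = 0.0154), with a rise from 144 to 2038 in OT-1 and from 11.5 to 1133 in TG6, and it was not called without OT-1 early replicate 2 (−2.42, adjusted p = 0.0508). That of Il2rb was −1.82 (adjusted p = 0.0135), with a rise from 153 to 4059 in OT-1 and from 29.9 to 2889.5 in TG6. The early OT-1 libraries also stood apart in Ccr7, Cd4 and Zbtb7b, whose part was not tested. The lines also differ in MHC haplotype and Rag genes, and these cannot be told apart from the TCR.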

How the results depend on the processing

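Of the 160 log2 values of members, 112 kept their side of the threshold under all alternatives and leave-one-out fits run, and 0 changed sign as called values. Counts of members called moved as follows, with the share of all genes called in either direction before and after. F5 against TG6 at the early stage went from 1 to 2 under total scaling (6.46% to 6.64%) and quantile normalization (6.71%), and at the late stage from 4 to 2 in a fit of those groups alone (4.97% to 1.58%). OT-1 against TG6 in such a fit went from 3 to 6 at the late stage (15.5% to 18.2%) and from 2 to 1 at the mature stage (9.74% to 1.65%). From late to mature, OT-1 went from 1 (24.4%) to 2 under total scaling (24.7%), 3 under quantile normalization (24.8%), 3 in a fit of the 2 groups (26.4%) and 4 with the replicate block (35.0%), and F5 from 3 to 5 with the block (20.5% to 29.3%).

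Counts of pathway genes moved with the replicate block from 12 to 21 in F5 and from 8 to 14 in OT-1 from late to mature, with the same shares. OT-1 against TG6 went from 16 to 10 at the late stage without the filter (7.65%), and from 6 at the mature stage to 3 without the filter (4.72%), 3 with no trend (8.50%) and 0 in a fit of those groups alone (1.65%), and TG6 late to mature went from 13 to 4 in such a fit (22.3% to 3.85%). Leaving out each library in turn gave 1 to 2 members for F5 against TG6 early, 2 to 4 late, 2 to 5 for OT-1 against F5 mature (5 without F5 replicate 1) and 1 to 3 for TG6 late to mature. For pathway genes it gave 5 to 13 for OT-1 against TG6 late, 2 to 16 mature (16 without TG6 replicate 3), 5 to 9 for OT-1 late to mature and 4 to 13 for TG6 late to mature. The share of all genes called moves in such fits too. For OT-1 against TG6 mature it was 15.0% higher and 12.2% lower without TG6 replicate 3, against 4.67% and 5.08% with it. The other shares are not given, so these ranges have no background.

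Across lines different mice share only a number, so a block by number pairs no mice there and its calls say nothing of the line difference. With it, as the replicate block, Il4ra was called between OT-1 and TG6 early (adjusted p = 0.0414) and late (0.0315) and Il2rb between OT-1 and F5 mature (0.0458), while Cish between OT-1 and F5 early (0.0518) and Stat5b between OT-1 and TG6 late were lost. Beside these and the values given with the results, the block changed no other call of a member. The cause of these shifts was not tested. With 2 or 3 libraries a group, the interval of OT-1 against TG6 early was wide for the low gene Cish, 0.51 to 3.44, and narrow for the abundant Il2rg, 0.02 to 0.41.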
